A study of Homo sapiens with 24 samples.

Results

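The 9 genes described here are a set of Müllerian and ovarian carcinoma lineage genes: PAX8, WT1, BNC1, SOX17 and EMX2, which encode transcription factors, and MUC16, MUC1, MSLN and FOLR1, which encode proteins of the cell surface. They were taken by symbol from a count table of 39786 genes, and all 9 were found. Messenger RNA was sequenced from OVCAR8, an established line from an ovarian carcinoma, and from 5637, an established line from a bladder carcinoma, which served as the contrast. Both lines were grown as parents and as a derivative resistant to neratinib (called NR), an irreversible inhibitor of the EGFR, HER2 and HER4 kinases. Cells of each kind received neratinib or no drug (control) for 24 h, at 600 nM in 5637 and at 1 µM in OVCAR8, which gave 8 groups of 3 libraries. NR cells had been kept without drug for 1 week before they were seeded. Whether an NR derivative is a clone or a pool, and how long it was selected, is not given in the sources used here. Each tissue is represented by 1 line, so line, tissue of origin and dose cannot be told apart, and the 3 dishes of a group were seeded together, so p-values measure only the spread between these dishes, which may be technical.

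The Müllerian duct gives rise to the oviduct, uterus and upper vagina, and serous carcinomas of the ovary and oviduct keep much of its gene program. PAX8 and SOX17 are transcription factors of oviduct epithelium, EMX2 patterns the urogenital tract, WT1 marks the coelomic epithelium and serous carcinomas, and BNC1 is a zinc finger protein of mesothelial and other epithelia. MUC16 and MUC1 are membrane mucins, mesothelin (MSLN) is a surface protein that binds MUC16, and FOLR1 is a folate receptor anchored in the membrane, and all of these are used as ovarian carcinoma antigens.

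Promoters of 4 members are shown because BNC1 fell in both resistant derivatives, because WT1 moved in opposite directions in them, and because MUC1 and MUC16 rose with neratinib in resistant 5637 cells. Each is the 250 bases before the most upstream start of the gene in RefSeq (GRCh38.p14), read 5′ to 3′ on the minus strand of the genome. Capitals mark matches, on either strand, to the GC box letters GGGCGG, the TATA box letters TATAAA or the EGR- and WT1-type letters GCGGGGGCG, and overlapping matches are merged.
BNC1, chr15:83284665-83284914: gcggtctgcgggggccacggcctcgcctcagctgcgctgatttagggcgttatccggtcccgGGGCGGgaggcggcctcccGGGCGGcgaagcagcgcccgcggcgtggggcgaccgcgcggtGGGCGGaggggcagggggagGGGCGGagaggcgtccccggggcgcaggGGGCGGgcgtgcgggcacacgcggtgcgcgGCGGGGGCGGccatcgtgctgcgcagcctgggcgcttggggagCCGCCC
WT1, chr11:32435540-32435789: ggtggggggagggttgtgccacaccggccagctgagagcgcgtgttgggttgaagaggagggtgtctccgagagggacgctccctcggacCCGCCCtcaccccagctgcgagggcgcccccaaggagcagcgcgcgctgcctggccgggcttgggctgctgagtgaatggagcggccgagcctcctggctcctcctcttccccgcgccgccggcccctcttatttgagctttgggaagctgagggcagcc
MUC1, chr1:155192916-155193165: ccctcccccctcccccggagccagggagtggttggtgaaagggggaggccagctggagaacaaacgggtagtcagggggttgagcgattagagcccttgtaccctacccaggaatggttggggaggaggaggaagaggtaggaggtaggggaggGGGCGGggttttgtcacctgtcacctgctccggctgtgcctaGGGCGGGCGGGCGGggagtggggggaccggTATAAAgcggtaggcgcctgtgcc
MUC16, chr19:9065752-9066001: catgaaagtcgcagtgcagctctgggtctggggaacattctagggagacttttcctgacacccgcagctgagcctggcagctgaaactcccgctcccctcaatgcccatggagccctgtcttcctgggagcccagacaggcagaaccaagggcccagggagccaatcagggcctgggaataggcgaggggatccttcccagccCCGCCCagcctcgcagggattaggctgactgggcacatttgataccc

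The BNC1 window held 7 GC boxes, 1 match to GCGGGGGCG, which overlaps a GC box, and 39 CpG dinucleotides. Among 35116 RefSeq promoters cut to the same length the median was 11 CpG, and 97.3% held fewer than BNC1. In the WT1 window there was 1 GC box and 19 CpG. The MUC1 window held 4 GC boxes, of which 3 overlap each other, and 1 TATA box that begins 24 bases before the start, and MUC16 held 1 GC box and 6 CpG. Over all promoters, 42.6% held a GC box, 10.7% a TATA box and 4.72% the letters GCGGGGGCG. PAX8 held 11 CpG and none of the 3 motifs, and EMX2 held 2 GC boxes and 20 CpG. These matches are descriptions of the letters, not measured binding sites. In the GENCODE 29 annotation of GRCh38, 2 of the 8 transcripts of WT1-AS, the antisense gene read in the opposite direction, start inside the WT1 window.

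Library totals ran from 23849832 to 48486296 counts, and 3 counts, used as the floor, corresponded to 0.0619 to 0.126 CPM (counts scaled by the library total). Replicate 2 of the OVCAR8 parental control stood apart: its share of counts on genes longer than 8 kb was 14.1%, while the remaining 11 libraries of that line had 20.4 to 21.2%. Calls of members that changed without it are given beside the results. The line labels were checked against markers. Of 15 urothelial markers in the table, 13 reached 1 CPM in 5637 parental control and 5 in OVCAR8 parental control, and their summed level was 4769 to 4843 CPM against 83.7 to 127 CPM. In 5637 NR control it was 955 to 998 CPM, with 11 markers at 1 CPM or more, and with neratinib it was 4957 to 5212 CPM in 5637 parents and 1690 to 1798 CPM in NR cells. Of 6 fibroblast markers, 3 reached 1 CPM in OVCAR8 parental control and 2 in NR control, with sums of 1164 to 1291 and 875 to 969 CPM, and COL1A2 and DCN were under 0.1 CPM in both. With neratinib the sums in OVCAR8 were 791 to 792 CPM in parents and 736 to 835 CPM in NR cells. In 5637 their sum was 147 to 154 CPM in parental control and 44.2 to 49.7 CPM in NR control, and 252 to 270 and 65.3 to 89.0 CPM with neratinib. Leukocyte markers (5) summed to at most 3.65 CPM in the untreated groups. The part of these marker shifts in the differences between NR and parental cells and in the drug effects was not tested.

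In untreated parental cells the ovarian line carried 6 of the 9 genes at 1 CPM or more, and the bladder line carried 5. Of 7 members tested between the lines, 5 were higher and 2 lower in OVCAR8, where 72% of 20250 genes tested differed. MUC16 and FOLR1 passed the filter only through the line in which they were high, so their calls were set by that choice, and the other members called were PAX8, MUC1, MSLN and BNC1, higher, and WT1, lower. The name of an ovarian lineage set was met by OVCAR8 in part: MUC16, SOX17 and EMX2 were at or near 0 there, and MUC16 and WT1 were higher in the bladder line. On a scale that corrects for gene length (TPM), MSLN led in OVCAR8 parental control at 356 ± 63.9 TPM (SD, n = 3). PAX8 followed at 58.9 ± 10.7 TPM, then BNC1 at 31.1 ± 14.1, MUC1 at 22.8 ± 3.8 and FOLR1 at 19.4 ± 4.64 TPM, and these last 3 overlapped between neighbours only through replicate 2, without which BNC1 (40.2 and 38.3 TPM), MUC1 (25.5 and 24.5 TPM) and FOLR1 (15.3 and 18.5 TPM) did not overlap. WT1 stood at 2.68 ± 0.557 TPM. In 5637 parental control MUC16 led at 18.9 ± 4.05 TPM, with WT1 at 5.27 ± 0.303 and PAX8 at 4.97 ± 0.153 TPM, which overlapped, and MSLN at 4.55 ± 0.130 TPM. In bulk RNA, fewer cells with a transcript and less transcript per cell cannot be told apart.

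**Figure D1:**
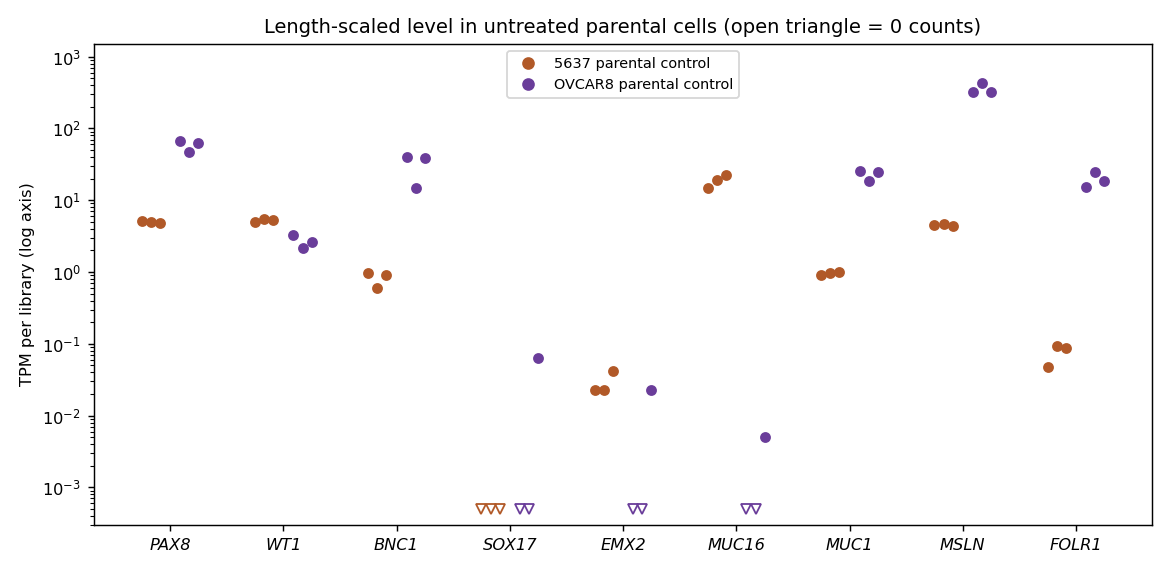
TPM (log axis) of the 9 genes in each untreated parental library, 3 points per line, with open triangles for libraries at 0 counts. MSLN was the highest in OVCAR8 (mean 356 TPM) and MUC16 the highest in 5637 (mean 18.9 TPM), while MUC16 was at 0 in 2 of the 3 OVCAR8 libraries.

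MSLN (chr16:810762-818865 in hg19) read 3.86, 3.97 and 3.88 CPM in the 3 untreated parental 5637 libraries and 266, 406 and 267 CPM in OVCAR8. The lines were far apart, and the fitted log2 difference was 6.34 ± 0.21 (SE; edgeR adjusted p = 3e-18). PAX8 (chr2:113973574-114036527) read 12.2, 12.2 and 12 CPM in 5637 and 157, 126 and 153 CPM in OVCAR8, a log2 difference of 3.57 ± 0.10 (edgeR adjusted p = 4e-19). FOLR1 (chr11:71900602-71907345), with 1, 2 and 2 counts in 5637, read 7.78, 14.2 and 9.60 CPM in OVCAR8. Over the pooled libraries these were 5 counts against 1206, so the fitted fold change of FOLR1 (log2 7.92) depends on few counts in 5637. MUC1 (chr1:155158300-155162707) and BNC1 (chr15:83924655-83953466) were also higher in OVCAR8, by 4.58 ± 0.17 and 5.19 ± 0.24 on the log2 scale.

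MUC16 (chr19:8959520-9092018), the largest of the members, went the other way. Its 3 untreated parental 5637 libraries held 8505, 11385 and 14483 counts, or 212, 281 and 341 CPM, and the OVCAR8 libraries held 0, 0 and 3. The ratio of pooled CPM was 10878, with an exact 95% interval of 3722 to 52751 that covers counting error only. In the other OVCAR8 groups MUC16 had at most 10 counts per library, the most in NR cells under neratinib (6, 4 and 10 counts). MUC16 was therefore not tested within OVCAR8. WT1 (chr11:32409321-32457176) was 7.26 ± 0.472 CPM in 5637 and 3.71 ± 0.551 CPM in OVCAR8, lower in OVCAR8 by 0.97 ± 0.16 on the log2 scale (edgeR adjusted p = 1.2e-05).

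The remaining transcription factors were near or below the floor. EMX2 (chr10:119301955-119309056) had 4 counts over the 3 libraries of 5637 parental control and 8 with neratinib, 0 in both NR groups of 5637, and 1 count in all 12 OVCAR8 libraries. SOX17 had 0 counts in all 12 libraries of 5637 and 2 or 3 counts per group in OVCAR8, with at most 2 in a library, under the floor of 3 counts per library. Neither was tested in any comparison, and no fold is given.

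Resistant 5637 cells had more PAX8 and WT1 and less MUC16, MSLN and BNC1 than their parents, with or without drug. Of 6 members tested, 2 were higher and 3 lower in untreated NR cells, where 56.5% of 18307 genes changed, and the same 5 passed in the same directions under neratinib, where 58% of genes did. The members' median log2 fold change was -0.97 without drug and -0.60 with it, beside medians within 0.01 of 0 for all genes tested. Resistant OVCAR8 cells had less of every member that passed. In OVCAR8, 0 of 6 tested members were higher and 5 lower without drug, beside 9.84% of 18072 genes changed, and 0 were higher and 5 lower with drug, beside 31% of genes. The median of the 6 was -0.99 without drug and -1.11 with it, beside -0.01 and -0.02 for all genes tested. The count of all genes changed without drug (1779) depended on single libraries: it was 4225 of 18537 without replicate 2 of the parental control, where 6 of 6 members passed, and 1122, 1007 and 993 without replicate 1, 2 or 3 of NR control. In OVCAR8, 4 members (PAX8, WT1, FOLR1 and BNC1) passed in both comparisons. For neither line was the share of all genes that passed in both computed. The comparisons with and without drug share no library, but they use the same derivative and parent and 1 fitted spread. The second is therefore not an independent repeat of the first.

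**Figure D2:**
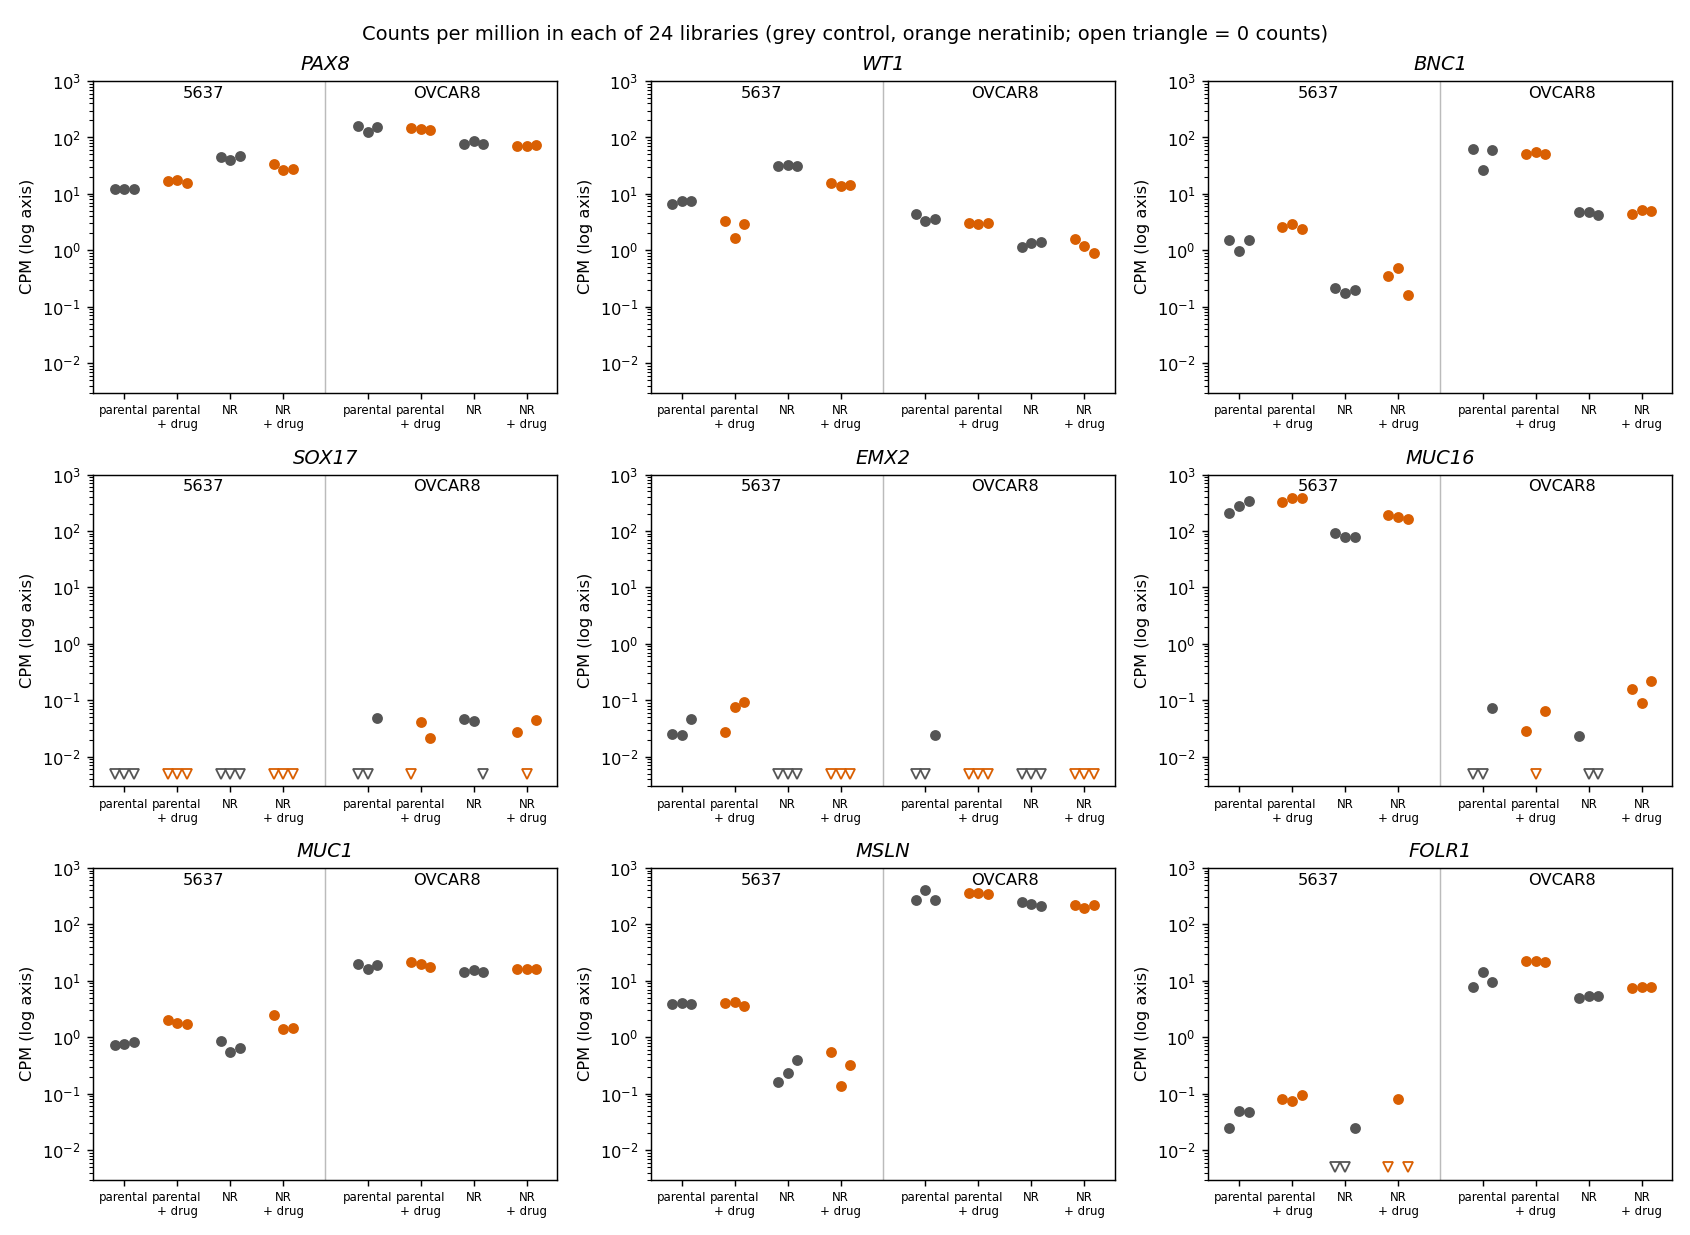
CPM (log axis) of each of the 9 genes in all 24 libraries, with control in grey, neratinib in orange, and open triangles for 0 counts. BNC1 dropped in the NR groups of both lines, WT1 and PAX8 were higher in NR than in parental 5637 and lower in NR than in parental OVCAR8, and SOX17 and EMX2 stayed at or near 0 counts.

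WT1, a zinc finger transcription factor, rose in resistant 5637 and fell in resistant OVCAR8. Untreated 5637 cells read 6.72, 7.54 and 7.53 CPM as parents and 30.7, 32.6 and 31.8 CPM as NR, groups that did not overlap. The log2 fold change was 2.11 ± 0.14 (edgeR adjusted p = 3.2e-09) and, under neratinib, 2.43 ± 0.16. In OVCAR8 it read 4.32, 3.25 and 3.57 CPM in parents and 1.17, 1.34 and 1.41 CPM in NR, again without overlap, a fall of 1.55 ± 0.19 on the log2 scale (edgeR adjusted p = 0.00024). Counts there were low, with 32 to 55 per NR library. The difference between lines in the NR effect on WT1 was -3.68 ± 0.25 (OVCAR8 minus 5637; edgeR adjusted p = 4.8e-11).

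WT1-AS, transcribed from the other strand, shares 113 bases with WT1 in the table's annotation. It rose with WT1 in 5637 NR control, by 2.30 ± 0.20, and fell with it in OVCAR8 NR control, by 2.25 ± 0.27 on the log2 scale (edgeR adjusted p = 8.7e-08 and 0.00027). Its mean went from 0.792 to 3.97 CPM in 5637 and from 1.38 to 0.276 CPM in OVCAR8. The drug comparison differed between them: WT1 fell with neratinib in 5637, while WT1-AS had log2 values of -0.04 in parental and -0.06 in NR cells and did not pass. With neratinib in parental OVCAR8, WT1-AS changed by 0.55 ± 0.21 (edgeR adjusted p = 0.063) and WT1 by -0.39, and neither passed. Between the untreated parental lines WT1-AS was higher in OVCAR8, by 0.80 ± 0.23 (edgeR adjusted p = 0.0031), whereas WT1 was lower there. Whether counting used the strand is not given in the sources used here, so reads in the shared bases cannot be assigned.

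PAX8, a paired box factor, read 45.5, 39.5 and 47.8 CPM in untreated 5637 NR cells, against 12 to 12.2 CPM in the parents. The groups did not overlap, and the log2 fold change was 1.85 ± 0.11 (edgeR adjusted p = 6.4e-10). Untreated OVCAR8 NR cells read 75.6, 86.1 and 75.1 CPM, below all 3 parental libraries, a fall of 0.92 ± 0.08 (edgeR adjusted p = 1.1e-05). With neratinib the NR effect was 0.78 ± 0.10 in 5637 and -0.95 ± 0.08 in OVCAR8. The effect of the NR state differed between lines by -2.79 ± 0.14 (OVCAR8 minus 5637; edgeR adjusted p = 2.1e-13). Even so, every OVCAR8 group stayed above every 5637 group for PAX8, with 71.1 ± 2.02 CPM in the lowest OVCAR8 group and 44.2 ± 4.29 CPM in the highest 5637 group.

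PAX8 in 5637 must be read beside an overlapping entry, AC016683.6, which the gene name table gives as PAX8-AS1 and which covers 60585 of the bases between the ends of PAX8. In untreated parental 5637 cells this entry was at 27.7 ± 2.36 CPM beside 12.1 ± 0.126 CPM for PAX8 (not scaled by length), and it moved with PAX8 in every 5637 comparison: by 1.58 ± 0.07 in NR control, 0.51 ± 0.07 with neratinib in parents and -0.64 ± 0.07 with neratinib in NR cells. In OVCAR8 parental control the same entries were at 7.63 ± 4.47 and 145 ± 17.0 CPM. There its NR change of -0.41 ± 0.34 did not pass (edgeR adjusted p = 0.44). Without knowledge of the strand setting, the changes of PAX8 and PAX8-AS1 in 5637 cannot be told apart.

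**Figure D3:**
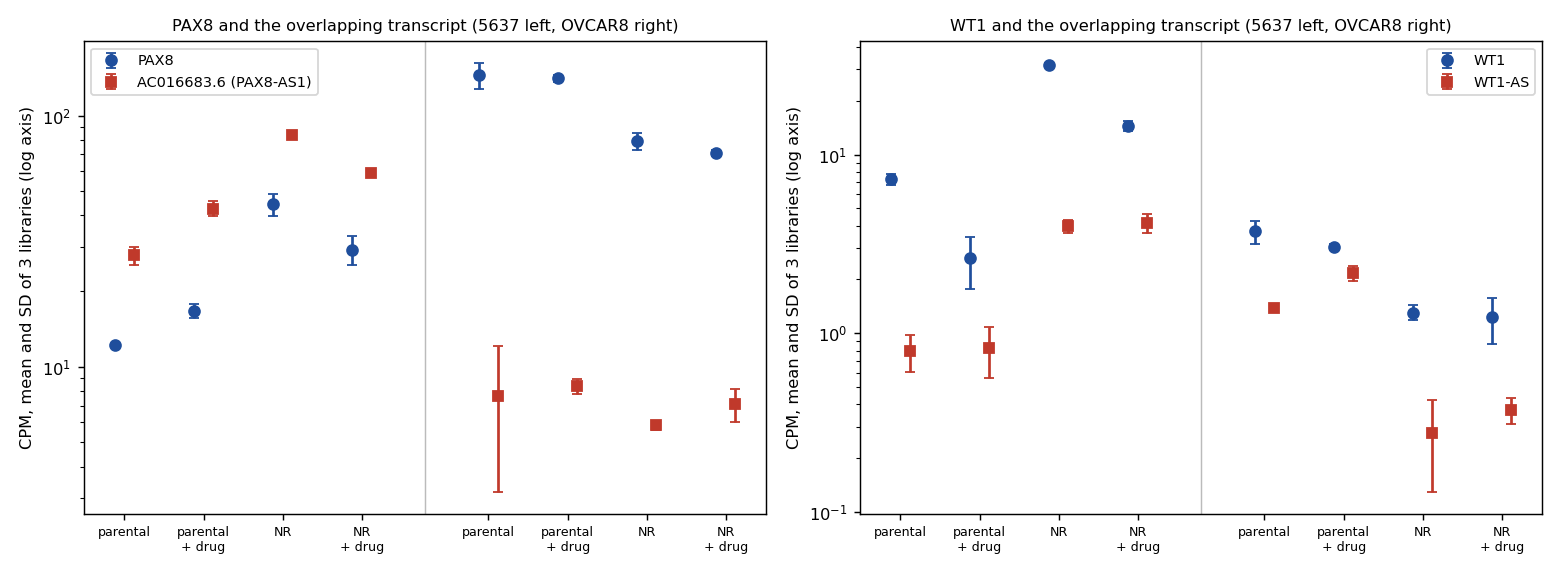
Mean CPM and SD of 3 libraries (log axis) for PAX8 with AC016683.6 (PAX8-AS1), and for WT1 with WT1-AS, in the 8 groups. In 5637 the antisense entry rises and falls with PAX8, while WT1-AS rises in NR 5637 cells (0.792 to 3.97 CPM) but shows no fall with neratinib.

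BNC1, a zinc finger protein, fell in the NR derivative of both lines. Its untreated 5637 libraries read 1.54, 0.962 and 1.51 CPM as parents and 0.212, 0.172 and 0.196 CPM as NR, a fall of 2.78 ± 0.34 on the log2 scale (edgeR adjusted p = 3.6e-06) that rests on 6 to 8 counts per NR library, so that BNC1 was tested in 5637 because of its parental level. Untreated OVCAR8 read 62.3, 26.2 and 60.5 CPM as parents and 4.76, 4.82 and 4.18 CPM as NR, a fall of 3.46 ± 0.24 (edgeR adjusted p = 3.2e-06). The groups did not overlap in either line, and the effects differed by -0.70 ± 0.58, which did not pass (edgeR adjusted p = 0.39). The parental OVCAR8 library at 26.2 CPM is the replicate that stood apart: without it the OVCAR8 fall was 3.75 and the difference between lines -0.98, which then passed (edgeR adjusted p = 0.045). With neratinib BNC1 was lower in NR cells by 3.01 ± 0.28 in 5637 and by 3.39 ± 0.24 in OVCAR8.

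Mesothelin fell most in the line that had little of it. MSLN counts were 155, 161 and 165 in untreated parental 5637 and 6, 8 and 16 in NR, a fall of 3.89 ± 0.30 on the log2 scale (edgeR adjusted p = 1.8e-08). The size of that fall rests on 6 to 16 counts per NR library. In OVCAR8, NR libraries read 254, 234 and 214 CPM, all below the parents, but the fall of 0.48 ± 0.17 did not pass (edgeR adjusted p = 0.098). Leaving out replicate 2 of the parental control, whose MSLN was high at 406 CPM, gave a fall of 0.19 that passed (edgeR adjusted p = 0.026). Leaving out replicate 1 or 3 gave falls of 0.61 that passed too. Under neratinib MSLN was lower in OVCAR8 NR by 0.68 ± 0.17 (edgeR adjusted p = 0.01). The NR effect differed between lines by 3.39 ± 0.37 (OVCAR8 minus 5637; edgeR adjusted p = 1.4e-07), a value that rests on the same few counts in NR 5637 cells.

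MUC16 in 5637 NR control read 91.8, 79.1 and 78.1 CPM, under the 212 CPM of the lowest parental library. The fall was 1.76 ± 0.13 on the log2 scale (edgeR adjusted p = 1.5e-08), and 1.09 ± 0.13 under neratinib. MUC1, a mucin with a far smaller transcript, differed in 5637 by -0.18 ± 0.28 (edgeR adjusted p = 0.61) with overlapping groups of 19 to 35 counts. OVCAR8 read 19.8, 16.4 and 19.4 CPM of MUC1 in parents and 14.1, 15.4 and 14.3 CPM in NR, groups that did not overlap. That fall of 0.39 ± 0.09 passed (edgeR adjusted p = 0.017) but not without replicate 1 or replicate 3 of NR control (adjusted p = 0.076 and 0.074), with library size scaling (0.054) or with no filter (0.052), and under neratinib it was 0.24 ± 0.09 (adjusted p = 0.061). The fall under neratinib passed in edgeR with the 1 CPM filter (0.25, adjusted p = 0.045) and without replicate 3 of treated parents (0.32, adjusted p = 0.024).

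FOLR1, measured in OVCAR8 alone, read 5.01, 5.37 and 5.38 CPM in untreated NR cells, below the 7.78 to 14.2 CPM of the parents. The fall was 1.06 ± 0.20 on the log2 scale (edgeR adjusted p = 0.0055), and 1.5 ± 0.19 under neratinib (edgeR adjusted p = 0.00013). It kept 0.73 without replicate 2 of the parental control. In 5637 FOLR1 had 5 counts in parental control and 1 in NR control over 3 libraries each and was not tested.

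**Figure D4:**
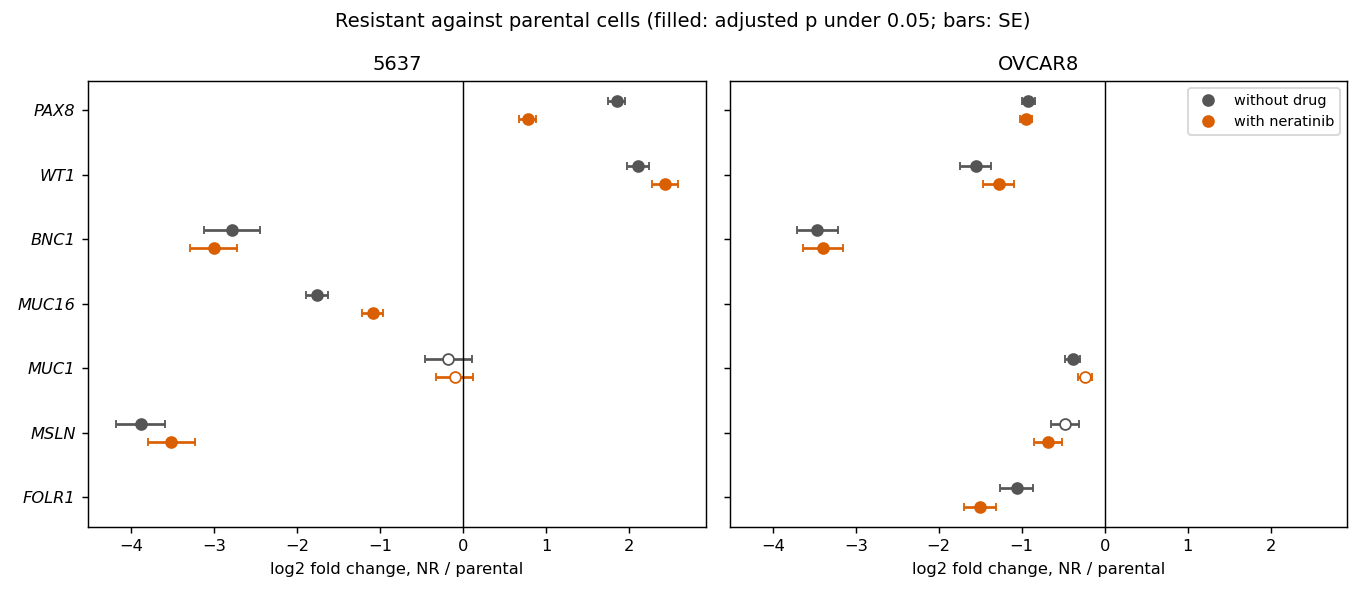
Log2 fold change of NR over parental cells with its SE, without drug (grey) and with neratinib (orange), for the 7 members tested in either line, with filled points where the adjusted p was under 0.05. In 5637, PAX8 and WT1 lie to the right of 0 and MUC16, MSLN and BNC1 to the left, and in OVCAR8 all 6 members lie to the left, BNC1 farthest at -3.46.

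Neratinib lowered WT1 and raised MUC1 in both states of 5637, whereas in OVCAR8 it raised FOLR1 in parental cells and changed no member past the threshold in NR cells. In parental 5637, 3 of 6 tested members were higher and 1 lower, beside 47.3% of 18307 genes changed. In NR 5637 cells 2 were higher and 2 lower, beside 39.5% of genes. In parental OVCAR8 1 of 6 was higher and 0 were lower, beside 32.5% of 18072 genes, and in NR OVCAR8 0 of 6 passed, beside 1.39% of genes. Without replicate 2 of the parental control, 5 of 6 members passed in parental OVCAR8 (FOLR1 and MSLN higher, PAX8, WT1 and BNC1 lower), beside 9117 of 18537 genes. The 251 genes called in NR OVCAR8 became 43 to 74 with any 1 of its 6 libraries left out, 98 with the replicate block and 747 in DESeq2. Of the 6 members in NR OVCAR8, 2 passed at an unadjusted p under 0.05 in edgeR, and DESeq2 called 0. The members' medians were 0.33 and 0.45 in parental and NR 5637 and -0.01 and -0.02 in OVCAR8, and those of all genes tested lay within 0.03 of 0. Scaling by library size alone moved the median of all genes to 0.13 and 0.12 in 5637 and to 0.11 in parental OVCAR8, so changes are given relative to the TMM scaling.

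WT1 under neratinib read 3.32, 1.67 and 2.87 CPM in parental 5637 and 15.4, 13.6 and 14.3 CPM in NR 5637. Both sets lie below their own controls without overlap. The falls were 1.58 ± 0.16 and 1.26 ± 0.13 on the log2 scale (edgeR adjusted p = 1.1e-06 and 2e-06). In parental OVCAR8 the change of WT1 was -0.39 ± 0.17 (edgeR adjusted p = 0.098), which became -0.43 and passed without replicate 2 of the control (adjusted p = 0.032). The drug effect on WT1 in parental cells differed between lines by 1.18 ± 0.24 (OVCAR8 minus 5637; edgeR adjusted p = 0.0022).

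MUC1 rose in 5637 from low counts. Neratinib took it from 29, 31 and 35 counts to 76, 72 and 75 in parental cells and from 33, 19 and 26 to 106, 51 and 54 in NR cells. The log2 fold changes were 1.16 ± 0.25 and 1.24 ± 0.26 (edgeR adjusted p = 0.0012 in each). In OVCAR8, where MUC1 was at 14.6 to 19.7 CPM as group means, the drug effects were -0.01 ± 0.09 and 0.14 ± 0.09 and did not pass. The effect in parental cells differed between lines by -1.18 ± 0.24 (edgeR adjusted p = 0.0019). THBS3, a neighbour of MUC1 in the genome, rose beside it, by 1.27 ± 0.08 in parental and 1.02 ± 0.09 in NR 5637 cells.

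For the second mucin, MUC16, the drug effect depended on the state of the 5637 cells. NR libraries read 192, 173 and 166 CPM under neratinib, above all untreated NR libraries, a rise of 0.97 ± 0.13 on the log2 scale (edgeR adjusted p = 2.5e-05). Parental libraries read 331, 391 and 384 CPM, overlapping the control range of 212 to 341 CPM, a change of 0.30 ± 0.13 (edgeR adjusted p = 0.061). That value passed under library size scaling (0.41), with no filter, and without control replicate 3 (0.47) or neratinib replicate 1 (0.37). The drug effects in NR and parental cells differed by 0.67 ± 0.18 (edgeR adjusted p = 0.022), but not past the threshold without parental control replicate 3 (0.50, adjusted p = 0.053) or parental neratinib replicate 1 (0.60, adjusted p = 0.059). Even at its highest in NR cells, MUC16 stayed below the level of untreated parents.

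PAX8 moved in opposite directions with the drug in the 2 states of 5637. It read 16.8, 17.7 and 15.5 CPM in treated parents, above their controls, and 33.5, 26.4 and 27.7 CPM in treated NR cells, below theirs. The log2 fold changes were 0.35 ± 0.11 (edgeR adjusted p = 0.014) and -0.72 ± 0.10 (edgeR adjusted p = 4e-05), and they differed by -1.07 ± 0.15 (edgeR adjusted p = 0.00014). The rise in parents did not pass without neratinib replicate 2 (0.30, edgeR adjusted p = 0.066). PAX8-AS1 showed the same opposition, with a difference of -1.15 ± 0.10 between its 2 effects. In OVCAR8 the drug effects on PAX8 were -0.14 ± 0.07 and -0.17 ± 0.07 and did not pass, although the first did without replicate 2 of the control (-0.19, edgeR adjusted p = 0.0031). Between the parental lines the drug effect on PAX8 differed by -0.50 ± 0.14 (edgeR adjusted p = 0.018), a call lost without replicate 2 or 3 of 5637 parental control (-0.46 and -0.45, adjusted p = 0.053 and 0.058).

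FOLR1 rose with neratinib in parental OVCAR8 with and without replicate 2 of the control. Parental cells read 22.5, 22.5 and 21.7 CPM with neratinib, above the 7.78, 14.2 and 9.60 CPM of the controls, a rise of 0.97 ± 0.19 on the log2 scale (edgeR adjusted p = 0.0024) that was 1.30 without control replicate 2. NR cells read 7.55, 7.81 and 7.67 CPM, above their 3 controls without overlap, but the change of 0.53 ± 0.20 did not pass (edgeR adjusted p = 0.26). The 2 effects differed by -0.44 ± 0.28 (edgeR adjusted p = 0.37), or by -0.78 without parental control replicate 2, which passed (edgeR adjusted p = 5.1e-05). Treated NR cells read FOLR1 near the 7.78 CPM of the lowest untreated parental library and under the other untreated parental libraries.

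For MSLN and BNC1, with all libraries kept, the drug effect passed only for BNC1 in parental 5637, where it kept its call in all 12 alternatives. BNC1 rose in parental 5637 from 1.34 ± 0.326 to 2.63 ± 0.237 CPM, by 0.87 ± 0.23 on the log2 scale (edgeR adjusted p = 0.0058), and its change in NR cells, 0.64 ± 0.42, did not pass with 6 to 18 counts per treated library. MSLN changed by -0.10 ± 0.20 in parental and 0.27 ± 0.43 in NR 5637 cells, neither past the threshold. In parental OVCAR8 the values were 0.06 ± 0.17 for MSLN and -0.01 ± 0.21 for BNC1. Both rested on replicate 2 of the control, without which MSLN rose by 0.36 and BNC1 fell by 0.29 (edgeR adjusted p = 2.9e-05 and 0.00018).

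**Figure D5:**
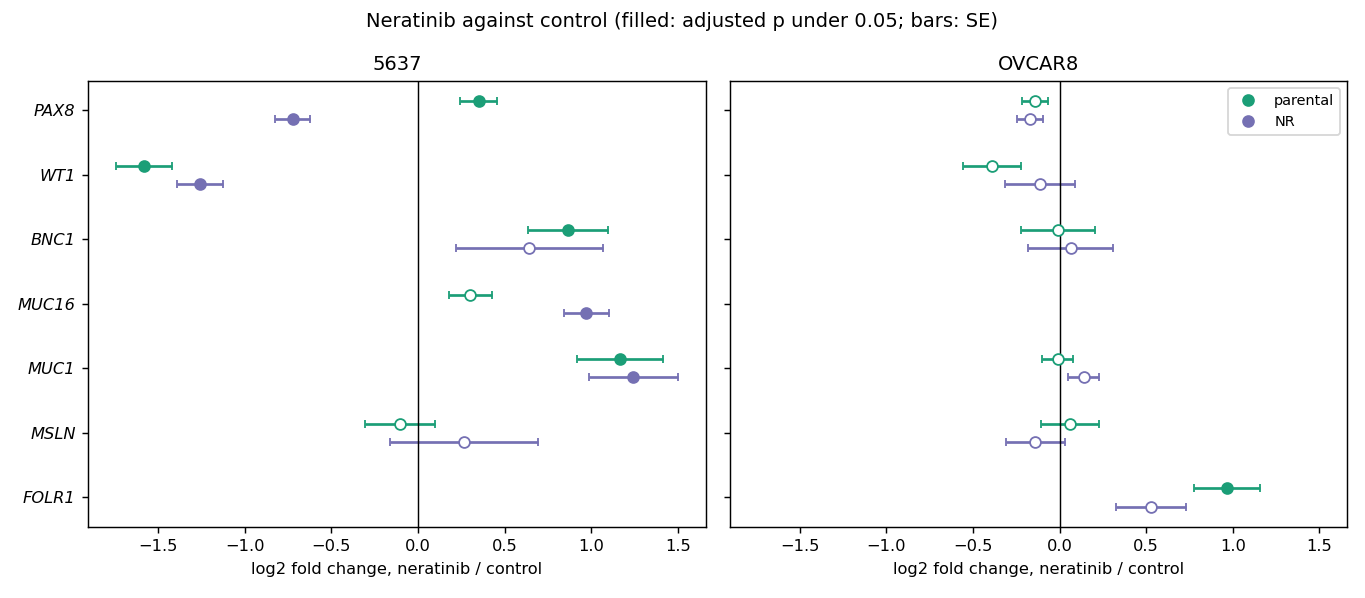
Log2 fold change of neratinib over control with its SE in parental (green) and NR cells (purple), with filled points where the adjusted p was under 0.05. In 5637, WT1 is below 0 and MUC1 above 0 in both states and PAX8 lies on opposite sides of 0, and in OVCAR8 FOLR1 in parental cells (0.97) is the filled point.

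Tests of the differences themselves gave few calls. In 5637 the drug effect differed between NR and parental cells for 2 of 6 tested members (PAX8 and MUC16), beside 13.9% of genes, with member and all-gene medians of 0.20 and -0.01. In OVCAR8 it differed for 0 of 6, beside 8.83% of genes, with medians of 0.02 and -0.02. In edgeR 0 of those 6 had an unadjusted p under 0.05, and DESeq2 called 0. Without replicate 2 of the OVCAR8 parental control, 3 passed (MSLN, FOLR1 and BNC1), beside 6076 of 18537 genes against 1595 of 18072 with it, and leaving out any 1 of the treated parental or NR libraries gave 790 to 994 genes. Between lines, the drug effect in parents differed for 3 of 7 members, beside 10.3% of 20250 genes, with medians of -0.16 and -0.02, and for 5 of 7 without that library (MSLN and BNC1 added), beside 3869 of 20813 genes. The NR effect differed for 3 of 7 (PAX8, WT1 and MSLN), beside 32.9% of genes, with medians of -0.23 and -0.03. For MUC16 and FOLR1 the differences between lines had SE of 1.23 to 4.11 on the log2 scale, since 1 line held almost no counts.

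Other genes of the Müllerian duct and of serous carcinoma, a list of 31 of which 27 were in the table, were mostly lower in the ovarian line. Of 23 tested, 4 were higher in untreated parental OVCAR8 and 19 lower, with a median log2 fold change of -3.34, beside 72% of 20250 genes. The higher genes included PRAME, a tumour antigen at 230 CPM in OVCAR8 and 0 in all 3 libraries of 5637, PGR, the progesterone receptor, at 11.5 CPM against 6 counts, and PAX2, a relative of PAX8, at 2.67 CPM against 0 counts. The lower genes included WNT7A, a Wnt ligand, with 2 counts in OVCAR8 against 351 CPM in 5637, MECOM with 2 counts against 38.1 CPM, and LYPD1 with 1 count against 37.4 CPM. All of these examples had 6 or fewer counts in the untreated parental cells of 1 line. Their direction was therefore set by the line that let them pass the filter, and the split and median include such genes. Between NR and parental 5637 control cells, 5 of 20 tested were higher and 13 lower, with a median of -0.42. Of all 18307 genes tested there, 56.5% changed, with a median of 0.0005. FOXJ1, a factor of ciliated cells, rose from 0.114 to 3.16 CPM, ESR1, the oestrogen receptor, rose by 0.84 ± 0.12, and WNT4 fell by 3.64 ± 0.14 on the log2 scale. In untreated parents FOXJ1 was near the floor, and it passed the filter through groups in which it was higher.

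In OVCAR8 NR control, 0 of 17 tested genes of that list were higher and 2 lower, with a median of -0.06. Of all 18072 genes tested there, 9.84% changed, with a median of -0.01. KRT7, a keratin of simple epithelia, fell by 1.62 ± 0.14 and BCAM, an adhesion molecule, by 0.54 ± 0.09. Without replicate 2 of the parental control the count was 3 higher and 3 lower. With neratinib 5 rose and 1 fell in parental OVCAR8 (median 0.46), beside 32.5% of all genes (median 0.01), or 9 and 1 without that replicate. More of all genes also passed without that replicate in both OVCAR8 comparisons, as given above. CAPS rose by 1.25 ± 0.20 and LHX1 by 0.79 ± 0.15, and PRAME fell by 0.47 ± 0.09. In parental 5637 the drug raised 5 and lowered 7 of 20 (median -0.08), or raised 5 and lowered 2 under library size scaling. Of all 18307 genes 47.3% changed (median 0.02), with 4368 higher and 4297 lower, or 5763 and 3212 under library size scaling. WNT4 rose by 1.04 ± 0.10 and WNT7A fell by 0.85 ± 0.06.

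Of 24 genes of mesothelium and coelomic epithelium, tissues that share WT1, MSLN and BNC1 with serous carcinoma, 21 were tested between the lines, and 13 were higher and 8 lower in OVCAR8 (median 1.00). Of all 20250 genes tested between the lines, 72% differed. CALB2, calretinin, was at 2.47 against 0.106 CPM, and PDPN, podoplanin, was higher by 3.44 ± 0.14 on the log2 scale. In untreated parental 5637 CALB2 was near the floor, and it passed the filter through groups in which it was higher. In OVCAR8 NR control 3 of 18 were higher and 4 lower, beside 9.84% of all genes changed. Without replicate 2 of the parental control the count was 5 and 4, and more of all genes passed, as given above. With all libraries PDPN rose by 1.42 ± 0.10, the cadherin CDH11 by 1.41 ± 0.11 and BNC2, the paralog of BNC1, by 0.60 ± 0.15, while TGM1 fell by 2.16 ± 0.14. BNC1 and BNC2 thus moved in opposite directions in OVCAR8 NR cells. In 5637 NR control 5 of 18 were higher and 7 lower (median -0.23), beside 56.5% of all genes changed. Among them were THBD, thrombomodulin, up by 2.30 ± 0.07, and the cardiac and gonadal factor GATA4, from 0.104 to 1.55 CPM. In untreated parents GATA4 was near the floor, and it passed the filter through groups in which it was higher. UPK3B, which has near-identical copies and is uncertain for that reason, fell by 4.83 ± 0.19. With drug in parental 5637 4 rose and 7 fell, beside 47.3% of all genes changed, or 6 and 4 under library size scaling.

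Among 18 family relatives of the members, 16 were in the table and 12 were tested between lines, with 4 higher and 8 lower in OVCAR8 (median -2.41), beside 72% of 20250 genes. MSLNL, a relative of MSLN, was at 7.08 CPM in OVCAR8 and 0.0646 CPM in 5637, as MSLN itself was higher in OVCAR8. MUC4, another membrane mucin, was at 0.127 against 154 CPM, as MUC16 was lower. Both MSLNL and MUC4 were near the floor in 1 line and passed the filter through the other. In 5637 NR control, 4 of 8 were higher and 4 lower, beside 56.5% of all genes changed. PAX5, a paralog of PAX8, rose by 3.32 ± 0.17, the folate transporter SLC19A1 rose by 0.88 ± 0.12, and MUC4 fell by 1.08 ± 0.12. Of 7 antisense or neighbouring genes of the members, 5 were in the table by symbol and 3 were tested in 5637. Of these, 2 were higher and 1 lower in NR control, beside 56.5% of all genes, and 2 rose with neratinib in parents, beside 47.3%. In OVCAR8 4 were tested, with 0 higher and 2 lower in NR control, beside 9.84% of all genes. Neratinib raised MUC4 in parental and NR 5637 cells by 1.34 ± 0.12 and 1.17 ± 0.12, and raised MSLNL in parental OVCAR8 by 1.07 ± 0.15.

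Genes most like each member were ranked by Pearson r of log2 CPM over the 12 libraries of a line, which share 4 groups, so these values describe group patterns and carry no test. In 5637 PAX8 was most like FMNL1, WNK4 and LAMB3 (r = 0.997, 0.990 and 0.989), WT1 most like IL8, LRCH1 and CXCL1 (0.992, 0.990 and 0.990) and MUC16 most like STRADA (0.992). MSLN was most like CAPN1 (0.995), MUC1 most like SOGA1 (0.981) and BNC1 most like BAZ2A (0.982). Among members, PAX8 and WT1 had r = 0.780 in 5637, and WT1 had -0.932 with MUC16 and -0.938 with BNC1. In OVCAR8 PAX8 and WT1 had r = 0.948, PAX8 and BNC1 had 0.985, and BNC1 was the gene ranked next after KCNK6 (0.989) for PAX8. WT1 was most like GDA (0.964), MSLN most like ZNF205 (0.993), MUC1 most like TGFB2 (0.929), FOLR1 most like PHYHD1 (0.993) and BNC1 most like NFIB (0.990). Without replicate 2 of the parental control the leading genes changed to MISP for PAX8 and BNC1 (0.991 and 0.996), CHRDL1 for WT1 (0.976), UNC93B1 for MSLN (0.993), CDC42EP3 for MUC1 (0.945) and OPTN for FOLR1 (0.997), while PAX8 with BNC1 stayed at 0.986.

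The order of levels over the 8 groups differed by member. PAX8 was highest in parental OVCAR8, where control and drug overlapped, then NR OVCAR8, and lowest in parental 5637, with no other neighbours overlapping. WT1 was highest in NR 5637 control, followed by treated NR 5637 and untreated parental 5637, and lowest in the 2 overlapping NR groups of OVCAR8. BNC1 and MSLN shared the order of lines, with the 4 OVCAR8 groups above the 4 of 5637, and within each line the parental groups above the NR groups. For FOLR1 treated parental OVCAR8 stood above the other groups, and untreated parental and treated NR OVCAR8 overlapped.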

How the data were processed

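Libraries were stranded TruSeq mRNA (poly(A)) preparations read from both ends, per the labels' protocols. The authors deposited 1 table of whole read counts for 39786 genes in 24 libraries, with gene length, hg19 coordinates and symbol. Per the submitters' processing notes, hg19 was the build, and the tools included featureCounts 1.15.2, STAR 2.5.3a, DESeq2 1.18.1 and FastQC. Whether counting used the strand is not given in the sources used here.

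Each line was fitted alone with 12 libraries in 4 groups, and differences between lines with all 24. Low genes were removed by filterByExpr, libraries were scaled by TMM, and edgeR 4.0.16 (R 4.3.3) gave quasi-likelihood F-tests, with Benjamini-Hochberg adjustment over all genes tested and 0.05 as threshold. SE values were derived from the F statistic. CPM are over library totals without TMM, and TPM use the deposited gene lengths. SOX17 and EMX2 passed no filter, MUC16 passed in 5637 but not in OVCAR8, and FOLR1 in OVCAR8 but not in 5637. Those 2 entered the fit of both lines. The step was tested on simulated counts.

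The 9 genes, the 4 gene lists and the tests were chosen with earlier results of these data known. All 9 are named throughout. From each list and comparison, the 3 rising and 3 falling genes with the largest change among those past the threshold, with a mean of 1 CPM in 1 group, were eligible, and examples are printed. The values of 1 eligible gene are not reported here. The entries overlapping PAX8 and WT1 are given for their position. Genes ranked as most like a member needed a mean of 5 CPM. Promoter sequences are from RefSeq (GRCh38.p14), matched by symbol for PAX8, WT1, MUC16, MUC1, EMX2 and BNC1. Alternatives were DESeq2 1.42.0, its size factors, library size alone, no filter, 1 CPM in 3 libraries, replicate number as a block, and each library left out. Intervals and floors cover counting error only.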

Additional observations from a re-analysis of the deposited data

Results flagged for a closer look

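In 8 cases the effect of drug or of the resistant state on a member differed between states or lines by a test of the difference itself (edgeR, adjusted p under 0.05; values are log2 differences). Between NR and parental 5637 cells the drug effect differed by -1.07 for PAX8 and by 0.67 for MUC16. Between the parental lines (OVCAR8 minus 5637) it differed by -0.50 for PAX8, 1.18 for WT1 and -1.18 for MUC1. The effect of the resistant state in untreated cells differed between the lines by -2.79 for PAX8, -3.68 for WT1 and 3.39 for MSLN. The PAX8 values in 5637 moved with those of the overlapping PAX8-AS1 entry, and the part of shared reads in them was not tested.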

How the results depend on the processing

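Of 81 log2 values tested for members, 44 were past the threshold, 40 of these kept direction and call under every alternative run, and 0 of the 44 reversed. Values that had not passed gained a call in 21 of the 1128 alternative values over all 81, and 9 lost one. These values come from comparisons that share libraries, and the same count over all genes was not made. Counts of members called moved by more than 1.5 times where a library was left out: from 1 to 2 in the 5637 interaction, 1 to 5 for the drug in parental OVCAR8, 0 to 3 in the OVCAR8 interaction and 2 to 5 for the drug effect between lines, with the upper counts in OVCAR8 all without replicate 2 of its parental control, where all-gene calls also rose (5868 to 9117, 1595 to 6076 and 2083 to 3869) and the lower count in 5637 without replicate 3 of parental control or replicate 1 of treated parents.
All reversals were of values that had not passed. For the drug in parental 5637, library size scaling gave MSLN 0.0025. For the drug in parental OVCAR8, library size scaling gave MUC1 0.084 and BNC1 0.068, and no filter gave 0.0044 and 0.0026. With 1 library left out, log2 values ranged for the drug in NR 5637 from -0.35 to 0.72 (MSLN), for NR against parental 5637 under neratinib from -0.45 to 0.058 (MUC1), and in the 5637 interaction from -0.27 to 0.28 (MUC1), -0.24 to 0.83 (MSLN) and -0.58 to 0.14 (BNC1). For the drug in parental OVCAR8 they ranged from -0.086 to 0.072 (MUC1), -0.073 to 0.36 (MSLN) and -0.29 to 0.16 (BNC1), in NR OVCAR8 from -0.33 to 0.081 (WT1), and in the OVCAR8 interaction from -0.065 to 0.037 (PAX8) and -0.10 to 0.35 (BNC1). Between lines they ranged for the drug from -1.33 to 3.11 (MUC16) and -0.14 to 0.41 (FOLR1), and for NR from -1.46 to 3.77 (MUC16). The cause was not tested.
Replicate numbers did not pair the libraries: same-numbered libraries correlated in their deviations from group means from -0.62 to 0.46 in 5637 (7 of 18 above 0.1) and from -0.35 to 0.33 in OVCAR8 (6 of 18). Differently numbered libraries ranged from -0.70 to 0.75 in 5637 (16 of 36 above 0.1) and from -0.49 to 0.39 in OVCAR8 (12 of 36). With the replicate block, 93 of 94 results kept direction and call, and BNC1 for the drug in parental OVCAR8 became 0.022. Library size scaling turned the split of all genes called in parental 5637 with drug from 4368 higher and 4297 lower to 5763 and 3212, in NR 5637 from 3372 and 3858 to 5016 and 2428, and in parental OVCAR8 from 2922 and 2946 to 3639 and 2175, and in the OVCAR8 interaction from 835 and 760 to 642 and 945. DESeq2 called 2429 genes in that interaction against 1595. SOX17, EMX2, MUC16 in OVCAR8 and FOLR1 in 5637 stood at 10 or fewer counts per library, and changes in them within a line were not tested.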
